A study of Homo sapiens with 14 samples.

Results

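Interferon-stimulated genes were described on Affymetrix arrays of LNCaP, a human prostate cancer line that responds to androgen, in 7 groups. The genes were a named set of 42 symbols, and a gene was read from the probe set annotated to that symbol alone. Where there were several, the brightest on average on a log2 scale was taken. Of the 42 genes 41 were measured in this way, out of 19775 genes on the arrays in all, and STAT2 is not analysed here. The 41 genes had 71 such probe sets, 19 genes with 1 and 22 with several.

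Untransfected cells were kept for 24 h in 0.1% DMSO, the solvent, in 5 uM TSA (trichostatin A, a histone deacetylase inhibitor) or in 10 uM Roscovitine, which inhibits cyclin-dependent kinases. Other cells were transfected for 60 h with si-Control, a control siRNA, with si-EZH2, an siRNA against the Polycomb methyltransferase EZH2, or with si-EZH2 together with a plasmid for siRNA-resistant EZH2. That plasmid encoded wild-type EZH2 (si-EZH2&EZH2sr, here the wild-type add-back) or EZH2 with alanine at T350 (si-EZH2&T350Asr, here the T350A add-back), and the study concerned phosphorylation of that residue. Each group had 2 arrays, 14 in all, and the labels do not say that the 2 came from separate cultures, so p-values measure only the spread between these arrays. Both add-back groups carry si-EZH2 as well as a plasmid, and no group labelled as si-EZH2 with an empty plasmid is among the 7, so the EZH2 protein and the plasmid itself cannot be told apart in a comparison with si-EZH2.

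Interferon-stimulated genes are switched on when type I or type III interferon receptors activate JAK1 and TYK2, which leads to a STAT and IRF9 complex that binds the interferon-stimulated response element (ISRE) in promoters. Cytosolic RNA sensors, RIGI (RIG-I) and IFIH1 (MDA5), start the same chain upstream by inducing interferon when they meet viral RNA, and they are interferon-stimulated genes themselves. LNCaP cells have been reported to respond poorly to interferon and to lack JAK1.

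Promoter sequences of HERC5, IFI6, ISG20 and IFITM1 are shown because these genes each passed the test in 3 comparisons and hold the letters of the element through which the family is known. IRF1 also passed in 3 comparisons and is not shown, since its promoter holds no match. RefSeq promoters (GRCh38.p14, 250 bases before to 50 after the start) were at hand for 31 of the 41 genes. The ISRE letters, GAAA followed by any 2 bases and GAAA again, searched on both strands, were in 21 of these 31 promoters and in 3.57% of all 35116 promoters of the same length. A kappaB consensus, searched in the same way and free to overlap the ISRE, was in 7 of the 31 and in 5.91% of all promoters. The 4 promoters lie at chr4:88456869-88457168 (plus strand, HERC5), chr1:27672143-27672442 (minus strand, IFI6), chr15:88638766-88639065 (plus strand, ISG20) and chr11:313790-314089 (plus strand, IFITM1). They are written 5′ to 3′ on the strand of the gene, and the capitals mark each ISRE match.
HERC5: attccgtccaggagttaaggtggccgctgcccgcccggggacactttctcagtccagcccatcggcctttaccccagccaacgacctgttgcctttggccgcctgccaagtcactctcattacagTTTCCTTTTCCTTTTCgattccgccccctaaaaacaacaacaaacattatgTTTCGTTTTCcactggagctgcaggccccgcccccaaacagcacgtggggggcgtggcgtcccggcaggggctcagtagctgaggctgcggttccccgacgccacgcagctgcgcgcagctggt
IFI6: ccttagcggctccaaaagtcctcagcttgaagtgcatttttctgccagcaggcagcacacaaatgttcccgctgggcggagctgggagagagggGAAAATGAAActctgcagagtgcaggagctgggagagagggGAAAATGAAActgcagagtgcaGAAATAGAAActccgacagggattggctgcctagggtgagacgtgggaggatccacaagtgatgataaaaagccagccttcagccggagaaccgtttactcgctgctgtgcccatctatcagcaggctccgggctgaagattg
ISG20: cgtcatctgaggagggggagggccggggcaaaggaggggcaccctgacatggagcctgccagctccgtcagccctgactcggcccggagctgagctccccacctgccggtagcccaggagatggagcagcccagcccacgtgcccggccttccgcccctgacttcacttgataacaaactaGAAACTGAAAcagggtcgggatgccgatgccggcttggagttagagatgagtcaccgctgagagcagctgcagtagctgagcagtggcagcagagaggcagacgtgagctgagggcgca
IFITM1: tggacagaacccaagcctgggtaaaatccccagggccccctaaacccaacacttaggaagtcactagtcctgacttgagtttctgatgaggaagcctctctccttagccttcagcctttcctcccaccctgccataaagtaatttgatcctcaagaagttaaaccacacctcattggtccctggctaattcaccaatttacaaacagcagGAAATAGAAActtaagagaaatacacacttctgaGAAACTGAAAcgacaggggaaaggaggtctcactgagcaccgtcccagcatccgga
HERC5 and IFI6 held 3 matches each, of which the first 2 in HERC5 overlap. IFITM1 held 2 matches and ISG20 held 1. None of the 4 held the kappaB consensus, whereas IRF1 held 2 kappaB matches in its 300 bases.

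The median signal per array ranged from 107 to 117. EZH2 had signals of 1161 and 1221 with si-Control, 393 and 393 with si-EZH2, 839 and 822 with the wild-type add-back and 806 and 826 with the T350A add-back. KLK3, a defining marker of the line, read 10165 and 10368 in DMSO. Of 8 measured leukocyte markers CD14 was between 1.0 and 2.45 in all 14 arrays, while CD79A read 1221 to 3068, and the other 6 lay between these ranges. The highest CD79A values were 3068 in Roscovitine replicate 2 and 2794 in T350A replicate 2. Signals are in the arbitrary units of the deposited values, and different genes' signals are not compared because each probe set has its own brightness. In bulk samples, fewer cells of a type and less RNA per cell cannot be told apart.

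Among the 41 genes 31 read 50 or more in all 14 arrays, 7 fell under 50 in some arrays, and 3 (DHX58, IFI16 and IFIT1) were under 50 in every array. DHX58 (LGP2, a regulator of RIG-I-like receptor signalling) was listed at 1.0 in all 14 arrays. IFITM3, a membrane protein that blocks virus entry, ranged from 784 to 3349. ISG15, a ubiquitin-like modifier, ranged from 1582 to 2306. IFITM1, IFITM2 and IFITM3 are near-identical paralogs whose probes can share transcripts, so their separate values are uncertain.

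Differences below are limma estimates on the log2(signal + 16) scale with their standard error, the pseudocount of 16 understates the change of dim genes, and p-values were adjusted over all 19775 genes with a call at 0.05.

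With si-EZH2 against si-Control, where 0.809% of all genes passed in either direction (0.683% higher, 0.126% lower), 0 of the 41 interferon-stimulated genes passed in limma and 2 had an unadjusted p under 0.05, HERC5 and PARP9. Their median log2 difference was -0.03, beside 0.04 over all genes tested. Differences ran from -0.29 for ISG20 to 0.46 for IFI44L, and the smallest adjusted p was 0.184, for HERC5. IFIH1 read 268 and 269 with si-Control and 309 and 326 with si-EZH2, with a log2 difference of 0.23 and a 95% interval of -0.23 to 0.69. IRF1, a transcription factor of interferon signalling, had a log2 difference of -0.14 with an interval of -1.02 to 0.75.

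When wild-type EZH2 was added back to si-EZH2 cells, 14 of the 41 genes rose, 1 fell and 26 did not pass. Over all genes tested 3.36% rose and 7.94% fell, 11.3% in either direction. The median log2 difference was 0.25 over the 41 genes and -0.05 over all genes tested, and 29 of the 41 were above 0. Among the 3 RNA sensors IFIH1 rose, and among the 25 antiviral effectors (the OAS and EIF2AK2 enzymes, the IFIT family, the ISG15 system and the IFITM, MX and related proteins) 8 rose and 1 fell. With the T350A add-back against the same si-EZH2 arrays 3 genes rose, 0 fell and 38 did not pass, where 0.637% of all genes rose and 0.167% fell, 0.804% in either direction. Its median over the 41 genes was 0.19, beside -0.00 over all genes. Both comparisons share the 2 si-EZH2 arrays.

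IFIH1, the sensor of long double-stranded RNA, read 309 and 326 with si-EZH2, 1164 and 701 with the wild-type add-back, and 631 and 512 with the T350A add-back. All 4 add-back arrays lay above both si-EZH2 arrays. Its log2 difference was 1.46 ± 0.20 (SE) with the wild-type (adjusted p = 0.00416) and 0.81 ± 0.20 with T350A (adjusted p = 0.130), and the second did not pass. The other IFIH1 probe sets, 1555464_at and 216020_at, had log2 differences of 0.19 and -0.37 with the wild-type and did not pass, nor did the mean of the 3 probe sets, at 0.43.

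RIGI, which senses short double-stranded RNA with a triphosphate end, depended on the probe set. The brightest one, 242961_x_at, read 499 and 565 with si-EZH2, 524 and 574 with the wild-type and 593 and 703.0 with T350A, and its wild-type log2 difference of 0.05 did not pass. Probe set 222793_at read 135 and 118 with si-EZH2, 802 and 561 with the wild-type and 851 and 339 with T350A. Probe set 218943_s_at read 83.5 and 100.1, then 244 and 156, then 185 and 188. On both of these dimmer probe sets every add-back array was above every array without a plasmid. In the limma fit over all 54613 probe sets, where 2.20% rose with the wild-type and 0.287% with T350A, 222793_at rose by 2.27 ± 0.34 with the wild-type (adjusted p = 0.00933) and had a difference of 1.96 with T350A (adjusted p = 0.0629). In that fit 218943_s_at rose by 0.97 ± 0.18 with the wild-type (adjusted p = 0.0185), and its T350A difference of 0.92 did not pass (adjusted p = 0.0988). This fit over probe sets was chosen after the data were seen.

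**Figure D1:**
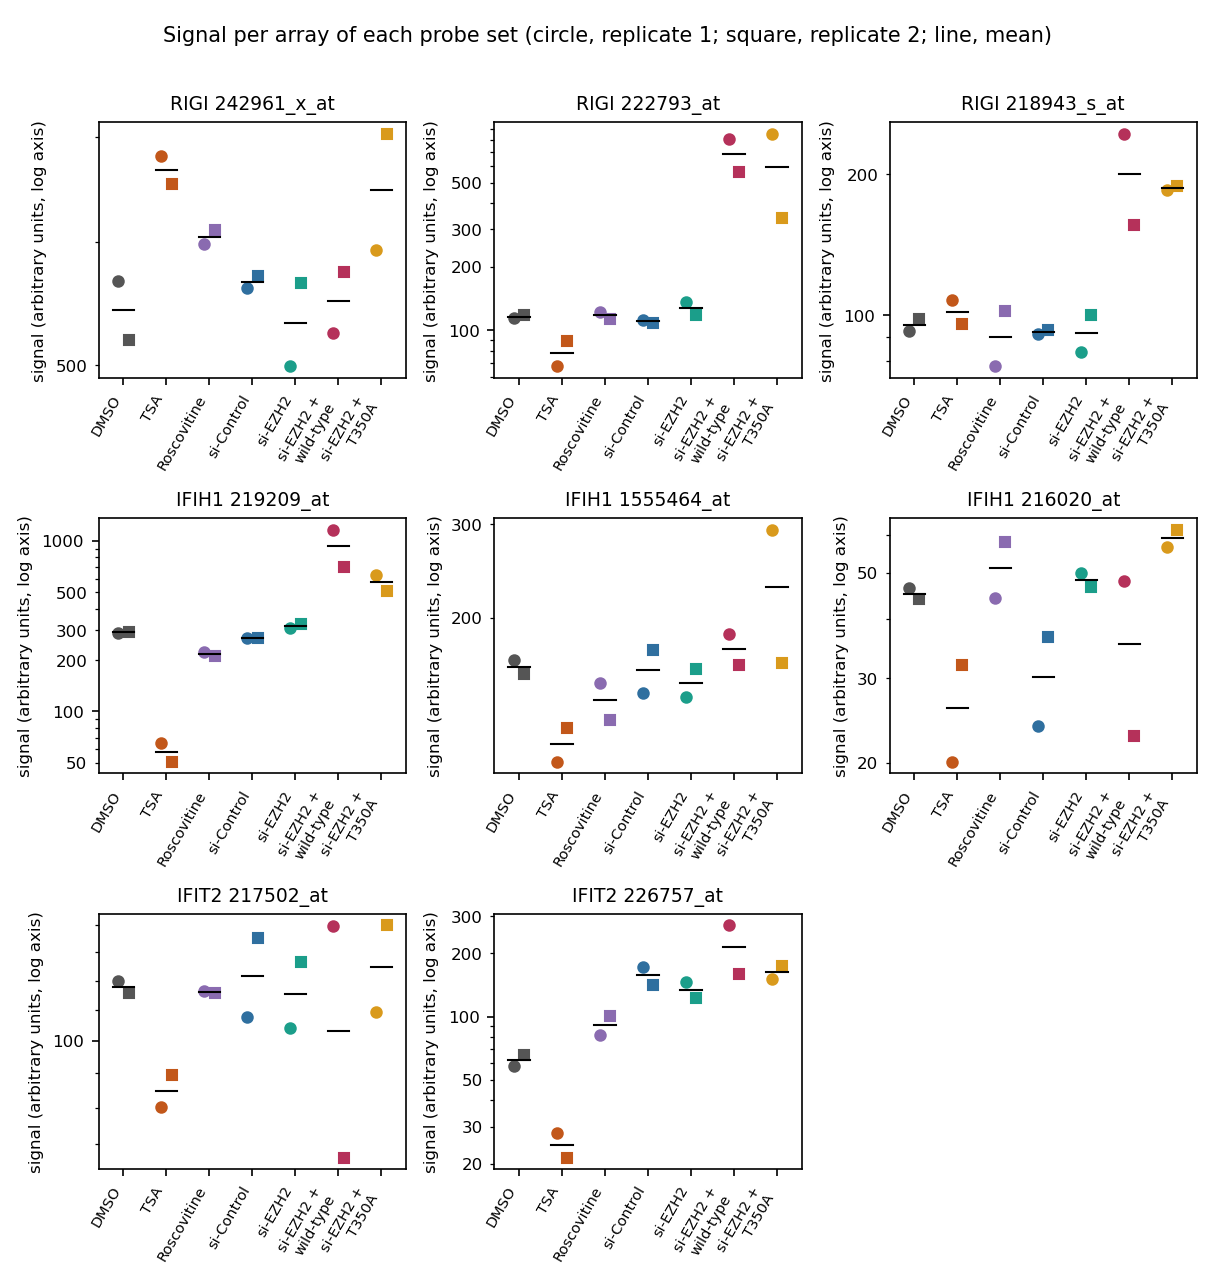
Signal of every probe set of RIGI, IFIH1 and IFIT2 in each of the 14 arrays (vertical log axis, arbitrary units, a different range in each panel), with the 2 arrays of a group as a circle and a square and their mean as a line. For RIGI the brightest probe set shows no separation of the add-back arrays, while the other 2 read 156 to 851 in the 4 add-back arrays and at most 135 in the other 10.

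GBP1, an interferon-inducible GTPase that coats intracellular pathogens, had the largest log2 difference of the 41 genes with the wild-type. It read 44.2 and 40.8 with si-EZH2, 2253 and 1072 with the wild-type add-back and 743 and 402 with T350A, while the other 10 arrays, si-EZH2 included, stayed between 21.2 and 60.6. The log2 difference was 4.75 ± 0.34 with the wild-type (adjusted p = 0.000366) and 3.27 ± 0.34 with T350A (adjusted p = 0.00340). Of its 4 probe sets 3 rose in both comparisons in the fit over all probe sets, and 231578_at had a difference of -0.35 with the wild-type and did not pass. Its relative GBP2 rose by 0.91 ± 0.22 with the wild-type (adjusted p = 0.0315). GBP2 probe set 202748_at read 182 and 171 with si-EZH2, 1325 and 729 with the wild-type and 520.5 and 354 with T350A, a wild-type log2 difference of 2.38 (adjusted p = 0.00231 over all probe sets).

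IRF1 read 224 and 248 with si-EZH2, 1505 and 1631 with the wild-type and 5201 and 1659 with T350A. Both add-back groups lay above every other array, and the T350A arrays differed from each other by more than the wild-type arrays. The log2 difference was 2.65 ± 0.39 with the wild-type (adjusted p = 0.00511) and 3.55 ± 0.39 with T350A (adjusted p = 0.00485). IRF7, the amplifier of type I interferon genes, and IRF9, the DNA-binding partner of the STAT complex, did not pass with either plasmid.

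ISG20, an exonuclease that degrades viral RNA, read 646 and 715 with si-EZH2, 2499 and 1439 with the wild-type and 1023 and 1054 with T350A. It rose by 1.46 ± 0.20 with the wild-type (adjusted p = 0.00416), and its T350A difference of 0.60 did not pass (adjusted p = 0.257). IFITM1, which also restricts virus entry, read 195 and 212 with si-EZH2, 469 and 363 with the wild-type and 482 and 369 with T350A. It rose by 0.97 ± 0.14 with the wild-type (adjusted p = 0.00469) and by 1.00 ± 0.14 with T350A (adjusted p = 0.0156), so that it passed with both plasmids. A probe set shared by IFITM1 and IFITM2, left out of the gene fit, had a wild-type log2 difference of 0.43 and did not pass.

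OAS3, which makes the 2-5A second messenger that activates RNase L, read 318 and 333 with si-EZH2, 548 and 470 with the wild-type and 430.1 and 448 with T350A. It rose by 0.62 ± 0.10 with the wild-type (adjusted p = 0.00779), and the T350A difference of 0.41 did not pass (adjusted p = 0.123). OAS1, OAS2, OASL and EIF2AK2 (PKR, the kinase that stops translation on double-stranded RNA) did not pass, although OAS1 probe set 205552_s_at rose by 0.69 with the wild-type in the fit over all probe sets (adjusted p = 0.0309). In the IFIT family, proteins that bind viral RNA ends, IFIT5 read 200.3 and 242 with si-EZH2, 535 and 361 with the wild-type and 327 and 296 with T350A. IFIT5 rose by 0.95 ± 0.18 (adjusted p = 0.0116) and IFIT3 by 0.61 ± 0.12 (adjusted p = 0.0146) with the wild-type, while IFIT1 and IFIT2 did not pass.

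IFI44 read 160 and 180.4 with si-EZH2, 371 and 249 with the wild-type and 199.6 and 187 with T350A. It rose by 0.79 ± 0.15 with the wild-type (adjusted p = 0.0127). DDX60, a helicase linked to RIG-I signalling, rose by 0.93, IFI35 by 0.86, IFI6 by 0.57 and IFITM2 by 0.49, with adjusted p-values of 0.0272, 0.0291, 0.0461 and 0.0217. USP18, the protease that removes ISG15 and dampens interferon receptor signalling, fell by 0.63 with the wild-type (adjusted p = 0.0277). It read 339 and 337 with si-EZH2, 177 and 255 with the wild-type and 267 and 238 with T350A. The ubiquitin-like modifier ISG15 itself read 1837 and 1956, then 2306 and 2220.2, and its difference of 0.25 did not pass (adjusted p = 0.132). MX1, the dynamin-like GTPase widely used as an interferon marker, read 173 and 188 with si-EZH2 and 183 and 192 with the wild-type, and RSAD2 (viperin) had a difference of 0.69 that did not pass (adjusted p = 0.0567).

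**Figure D2:**
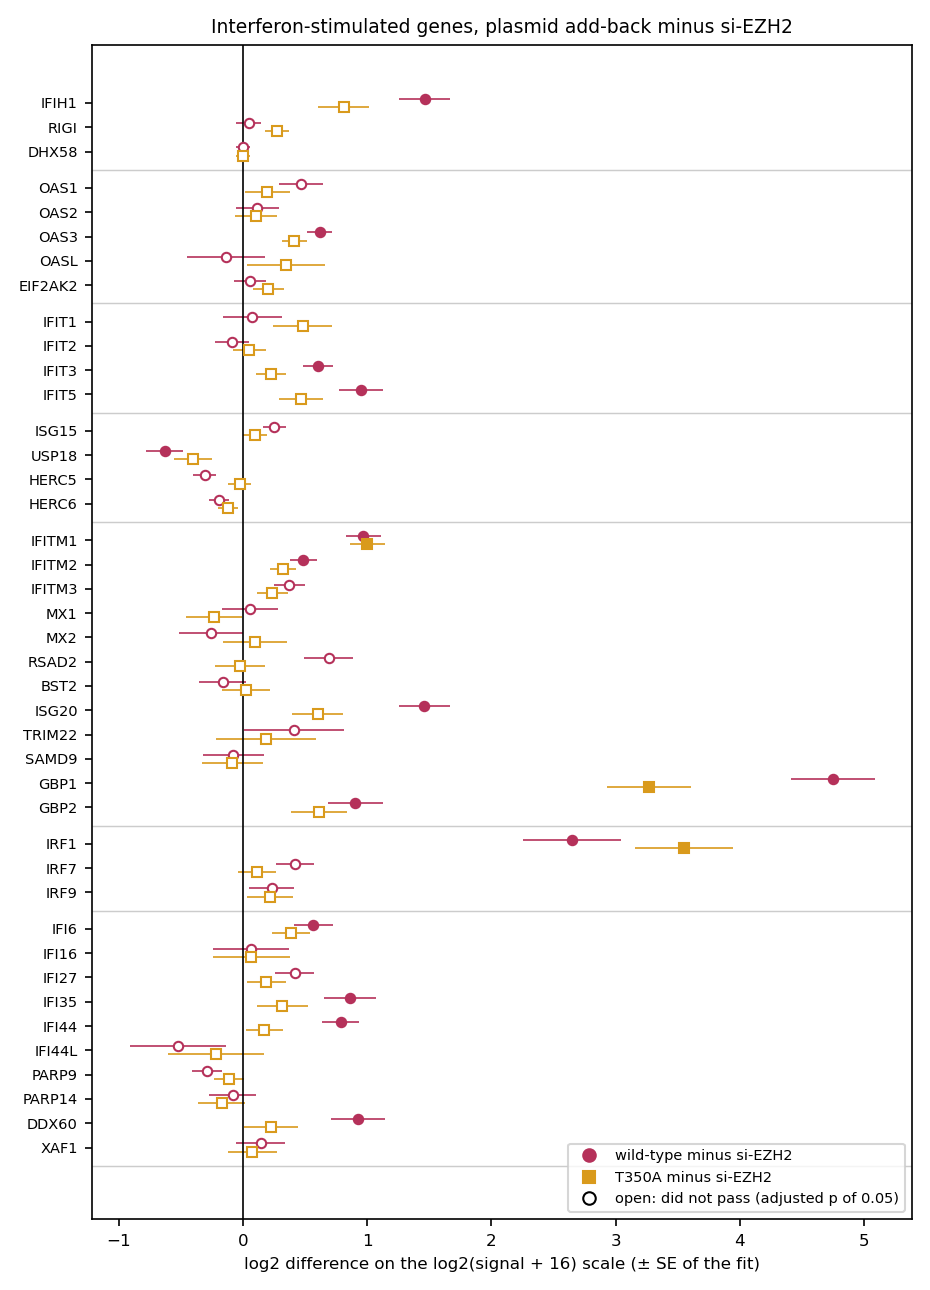
Log2 difference from si-EZH2 of the 41 genes with the wild-type (circles) and the T350A (squares) add-back, with the standard error of the fit as bars, grouped from the top as RNA sensors, OAS and EIF2AK2 enzymes, IFIT family, ISG15 system, IFITM, MX and related effectors, transcription factors and other genes. Filled marks passed the test, 15 with the wild-type and 3 with T350A, and GBP1 and IRF1 stand apart at 4.75 and 2.65 with the wild-type.

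With T350A against the wild-type add-back 0 of the 41 genes passed in limma, where 0.202% of all genes did (0.0455% higher, 0.157% lower), and 12 had an unadjusted p under 0.05. The median was -0.09 over the 41 genes and 0.06 over all genes. Without wild-type replicate 2 these medians were -0.19 and 0.05. GBP1 had a log2 difference of -1.48 with a 95% interval of -2.24 to -0.72 (adjusted p = 0.130). ISG20 had -0.86 (adjusted p = 0.143) and IFIH1 -0.65 with an interval of -1.11 to -0.19 (adjusted p = 0.196). IRF1 had 0.90 with an interval of 0.01 to 1.79 (adjusted p = 0.300), and IFITM1 0.03 with an interval of -0.29 to 0.35. These intervals are per gene and not adjusted, and a p above the threshold does not show that the plasmids act alike.

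The 2 wild-type arrays were not equal for these genes. Replicate 1 was above replicate 2 in 11 of the 14 genes that rose, and replicate 2 was higher in only 12 of all 41 genes. Across the 41 genes the median absolute log2 difference between the replicates was 0.32 for the wild-type and 0.22 for T350A, against 0.11 to 0.15 in the other 5 groups. Over the 9887 brighter genes of the array the groups ranked differently. The SD of the replicate difference was 0.29 for T350A, 0.24 for Roscovitine, 0.20 for the wild-type and 0.10 to 0.14 elsewhere. The summed signal of 6 measured LNCaP markers of 8 was 16052 and 21613 with the wild-type, 21346 and 25466 with T350A and 26054 and 26302 with si-EZH2. The lower sum was in the wild-type replicate 1, and KLK2, one of the 6, fell by 1.02 with the wild-type (adjusted p = 0.0169). Of 8 measured leukocyte markers 0 passed in limma in either add-back comparison (1 unadjusted p under 0.05 in each), with a summed signal of 1929 to 1940 with the wild-type and 1749 to 2378 with si-EZH2. Of 8 fibroblast and endothelial markers 0 passed with either plasmid, with 0 unadjusted, and of 8 measured markers of androgen-independent lines 1 fell with the wild-type. The part of the marker change in these results was not tested.

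Without si-EZH2 replicate 1, si-EZH2 replicate 2 or wild-type replicate 1 fewer of the 41 genes passed with the wild-type, and fewer of all genes did too. The median over the 41 genes was then 0.21, 0.35 or 0.26. GBP1, IFIH1, ISG20, IFITM1 and IRF1 kept their wild-type call without any 1 of the 14 arrays. In a fit of the transfected arrays alone only GBP1 passed, where 1.23% of all genes did. OAS3 lost its call without si-EZH2 replicate 1, IFIT5 and IFIT3 without that array or wild-type replicate 1, and IFI44 without either si-EZH2 array. With a gene's probe sets averaged IFIT5 and IFI44 also lost theirs (adjusted p = 0.0916 and 0.0795). IFITM2, DDX60, USP18 and IFI35 lost theirs without either si-EZH2 array or without wild-type replicate 1. Among the fits without 1 array GBP2 kept its call only without a Roscovitine array, a T350A array or wild-type replicate 2. IFI6 kept its call there only without a si-Control array. For T350A fewer of the 41 genes and of all genes passed without either si-EZH2 array, and more of both without either wild-type array. In the fit of the transfected arrays alone 0 of the 41 genes and 0.0202% of all genes passed. The T350A call of IRF1 was lost without either si-EZH2 array and that of IFITM1 without those or T350A replicate 1.

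Upstream of these genes, 0 of 18 measured interferon genes passed in limma in either add-back comparison, with an unadjusted p under 0.05 for 2 with the wild-type and 0 with T350A. IFNB1, the first interferon made after RNA sensing, read 44.0 and 26.5 with si-EZH2, 88.6 and 52.1 with the wild-type and 49.5 and 57.0 with T350A, and its wild-type log2 difference of 0.74 did not pass (adjusted p = 0.164). Of 9 receptor chains and receptor kinases 4 rose with the wild-type, namely IFNGR1, IFNGR2, IFNAR1 and IL10RB, and IFNGR1 alone rose with T350A. Over all genes tested 3.36% rose with the wild-type and 0.637% with T350A. IFNGR1, the ligand-binding chain of the interferon-gamma receptor, read 1688 and 1708 with si-EZH2, 7534 and 5298 with the wild-type and 4809 and 4481 with T350A. It rose by 1.89 ± 0.14 with the wild-type and by 1.44 ± 0.14 with T350A (adjusted p = 0.000366 and 0.00231). IFNGR2 rose by 0.74 and IFNAR1 by 0.54, both without a call once either si-EZH2 array or wild-type replicate 1 was left out. IL10RB rose by 0.58, and among the fits without 1 array its call held only without a Roscovitine array or wild-type replicate 2.

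JAK1 read 215 and 239 with si-EZH2, 240.2 and 243 with the wild-type and 288 and 289.5 with T350A on its brightest probe set, and did not pass. Its probe set 201648_at read 144 and 145 with si-EZH2, 265 and 187 with the wild-type and 292 and 213 with T350A, and did not pass in the fit over all probe sets either. These files hold no detection calls, so a signal of this size does not show that the transcript was present.

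Of 12 adaptors and kinases of nucleic acid sensing 5 rose with the wild-type and 2 with T350A, where 3.36% and 0.637% of all genes rose. TRAF3, an adaptor that links RNA sensors to TBK1, rose by 0.66 ± 0.08 with the wild-type and 0.85 ± 0.08 with T350A (adjusted p = 0.00245 and 0.00219). TICAM1 (TRIF, the adaptor of TLR3) read 514 and 553 with si-EZH2, 1120 and 1021 with the wild-type and 1828 and 1004 with T350A. It rose by 0.98 and 1.32 (adjusted p = 0.0215 and 0.0303), and among the fits without 1 array its T350A call held only in those without a wild-type or a T350A array. The kinase IKBKE rose by 1.03 and the double-stranded RNA receptor TLR3 by 0.72 with the wild-type, and both calls, like the wild-type call of TICAM1, were lost without either si-EZH2 array or wild-type replicate 1.

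Of 29 further interferon-induced genes 7 rose with the wild-type and 0 with T350A in limma, where 3 had an unadjusted p under 0.05. The shares of all genes that rose were 3.36% with the wild-type and 0.637% with T350A. TRIM25, the ubiquitin ligase that acts on RIG-I, rose by 0.70 ± 0.11 (adjusted p = 0.00672) and TRIM21, a cytosolic antibody receptor, by 0.70 ± 0.11 (adjusted p = 0.00619). SP100, a nuclear body protein, rose by 0.66 ± 0.12 and PARP12 by 0.49 ± 0.10. TRIM25 lost its call without si-EZH2 replicate 2, SP100 without either si-EZH2 array or with its probe sets averaged, and PARP12 without those or wild-type replicate 1. Of the 4 feedback inhibitors 0 passed in limma with either plasmid, and 0 had an unadjusted p under 0.05.

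With TSA against DMSO the interferon-stimulated genes moved both ways. Of the 41 genes 10 rose, 11 fell and 20 did not pass, where 20.6% of all genes rose and 21.4% fell, 42% in either direction. The members' share was thus near the share over all genes. The median log2 difference was -0.06, beside 0.01 over all genes. Among the 3 sensors 1 rose and 1 fell, and among the 25 effectors 5 rose and 7 fell. The 6 LNCaP markers all fell with TSA, with a summed signal of 26805 to 27903 in DMSO and 3528 to 3624 in TSA, and 2 of 8 androgen-independent line markers rose. Of 8 leukocyte markers 1 fell, and of 8 fibroblast and endothelial markers 1 rose and 2 fell. The part of these markers in the changes was not tested.

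IFIH1 read 290.2 and 291 in DMSO, 65.5 and 50.6 in TSA and 224 and 211 in Roscovitine. It fell by 2.06 ± 0.20 with TSA (adjusted p = 2.48e-05). RIGI read 566 and 519 in DMSO and 681 and 653 in TSA and rose by 0.29 ± 0.10 (adjusted p = 0.0396). That call was lost without either DMSO array, either TSA array, either Roscovitine array or either si-Control array, and on the mean of all RIGI probe sets the difference was -0.04.

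HERC5, the ligase that attaches ISG15 to new proteins, read 134 and 157 in DMSO, 809 and 765 in TSA and 108 and 92.6 in Roscovitine. It rose by 2.31 ± 0.09 with TSA (adjusted p = 8.21e-08). IRF7 read 312 and 352 in DMSO and 1753 and 1593 in TSA, and rose by 2.28 ± 0.15 (adjusted p = 1.94e-06). IFI6, a mitochondrial protein that limits apoptosis, read 221 and 219 in DMSO and 1028 and 911 in TSA, and rose by 2.06 ± 0.15 (adjusted p = 4.07e-06). For each of the 3 genes the TSA arrays lay above all 12 others. IRF1 rose by 1.64 ± 0.39 (adjusted p = 0.00727), from 146 and 139.5 in DMSO to 485 and 472 in TSA. Its second probe set, 238725_at, had a difference of 0.22 and did not pass in the fit over all probe sets, nor did the mean of both, at 0.93 (adjusted p = 0.138).

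PARP9, which acts with the ligase DTX3L, read 478 and 533 in DMSO and 80.1 and 104 in TSA. It fell by 2.28 ± 0.12 (adjusted p = 4.88e-07). In the fit over all probe sets, where 16.3% fell with TSA and 15.5% rose, its probe set 227807_at fell by 0.44 (adjusted p = 0.0429). IFITM3 read 2443 and 2574 in DMSO and 858 and 784 in TSA, and fell by 1.59 ± 0.12 (adjusted p = 5.20e-06). IFITM2 read 1878 and 1947 in DMSO and 754 and 731 in TSA, and fell by 1.35 ± 0.11 (adjusted p = 6.01e-06). USP18 read 341 and 350.2 in DMSO and 187 and 155 in TSA, and fell by 0.96 ± 0.15 (adjusted p = 0.000523). In all 4 genes both TSA arrays lay below both DMSO arrays.

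The other genes that rose with TSA were SAMD9, BST2, IFIT1, GBP2 and IFI27, by 0.75 to 0.83. IFIT1 read 13.0 and 1.0 in DMSO and 24.6 and 21.0 in TSA, a range of dim signals, and lost its call without DMSO replicate 2 or either TSA array. GBP2 lost its call without the same 3 arrays, SAMD9 without either DMSO array or TSA replicate 1, and BST2 without DMSO replicate 1. GBP2 probe set 202748_at read 153 and 159.9 in DMSO and 1173 and 1190.4 in TSA, and rose by 2.80 (adjusted p = 1.93e-05 over all probe sets). The others that fell were IFI35 by 1.28, ISG20 by 0.99, IFI44 by 0.66, EIF2AK2 by 0.63, IFITM1 by 0.60 and OAS3 by 0.50. With its probe sets averaged IFI44 lost its call (adjusted p = 0.178). EIF2AK2 probe set 213294_at read 702 and 719.9 in DMSO and 203 and 203 in TSA, and fell by 1.73 (adjusted p = 2.38e-07 over all probe sets). ISG20 read 241 and 259.5 in DMSO and 126.5 and 109 in TSA. GBP1 had a TSA log2 difference of -0.94 that did not pass (adjusted p = 0.0501), while its probe set 202269_x_at fell by 1.27 (adjusted p = 0.0329 over all probe sets).

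**Figure D3:**
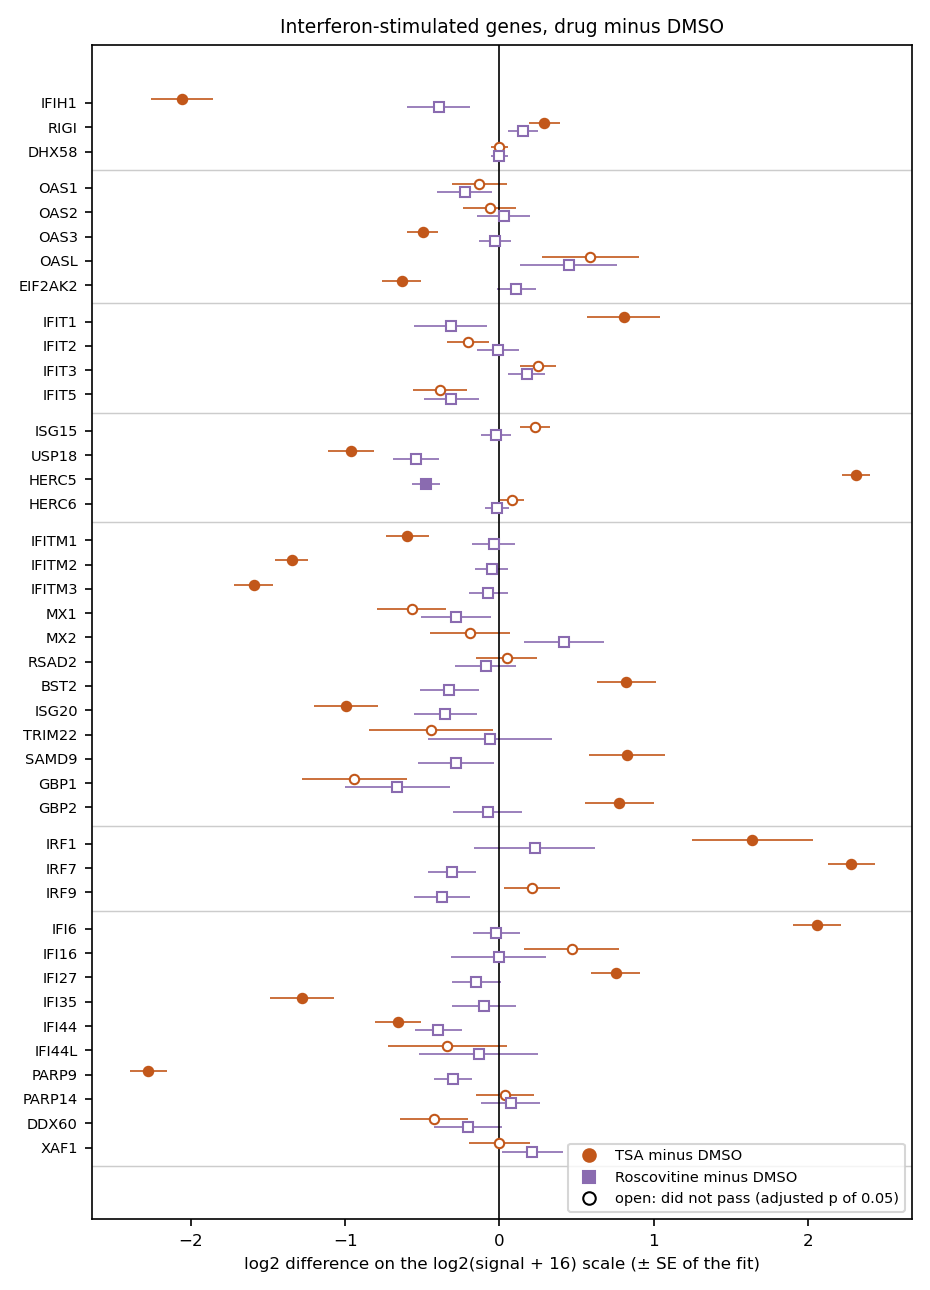
Log2 difference from DMSO of the 41 genes with TSA (circles) and Roscovitine (squares), with the standard error of the fit as bars and the same order of groups as for the add-backs. Filled marks passed the test, 21 with TSA and 1 with Roscovitine, and the TSA marks spread from -2.28 for PARP9 to 2.31 for HERC5.

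Of the 14 genes that rose with the wild-type add-back 7 fell with TSA (IFI35, IFI44, IFIH1, IFITM1, IFITM2, ISG20 and OAS3), which are 7 of the 11 that fell with TSA. A further 3 (GBP2, IFI6 and IRF1) rose in both, 3 of the 10 that rose with TSA, and 4 (DDX60, GBP1, IFIT3 and IFIT5) did not pass with TSA. Of the 664 genes of the whole array that rose with the wild-type add-back 172 fell with TSA (25.9%), 249 rose (37.5%) and 243 did not pass. These 2 comparisons share no arrays but share the estimate of spread. The ISRE letters were in 10 of the 12 promoters at hand among the genes that rose with the wild-type add-back, in 6 of 8 among those that rose with TSA and in 7 of 9 among those that fell with TSA. The kappaB consensus was in 3 promoters of each of these groups.

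**Figure D4:**
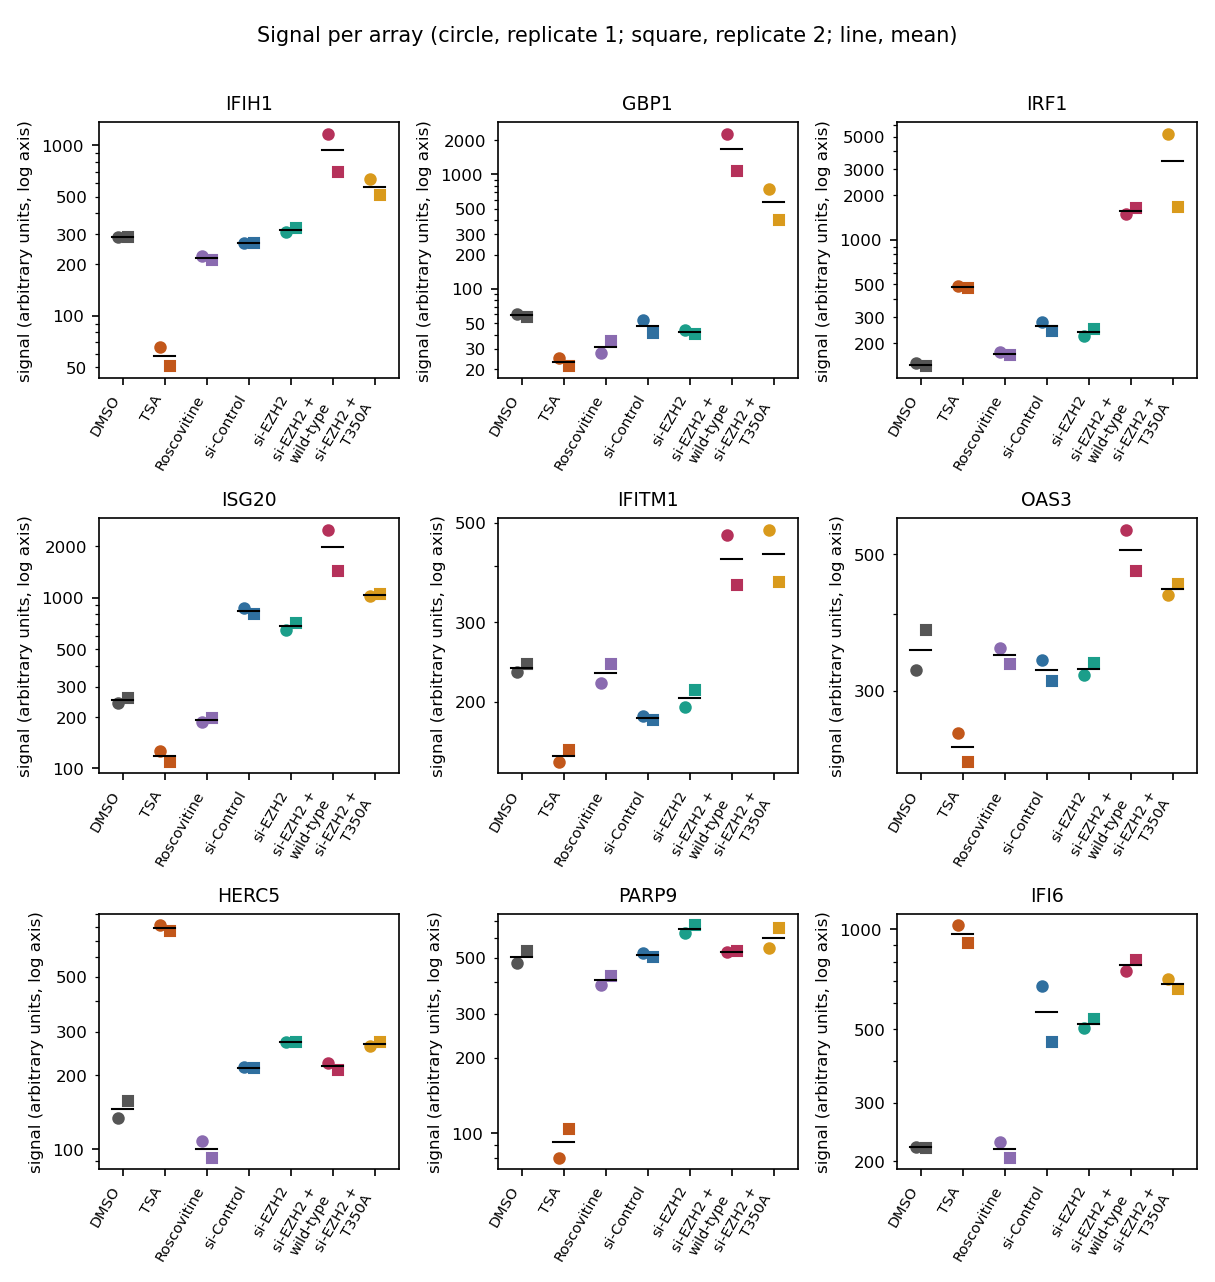
Signal of 9 interferon-stimulated genes in each of the 14 arrays (vertical log axis, arbitrary units, a different range in each panel), with the 2 arrays of a group as a circle and a square and their mean as a line. IFIH1, GBP1, ISG20, IFITM1 and OAS3 are highest in add-back arrays and lowest in TSA, IRF1 is raised in both, and HERC5 and PARP9 have their extremes in TSA.

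Of the 29 further interferon-induced genes 4 rose and 10 fell with TSA, where 42% of all genes passed in either direction. PARP10 read 1534 and 1551 in DMSO and 65.6 and 71.0 in TSA and fell by 4.21 ± 0.09 (adjusted p = 4.74e-09). DTX3L, the partner of PARP9, read 1302 and 1314 in DMSO and 69.9 and 78.0 in TSA and fell by 3.88 ± 0.15 (adjusted p = 7.23e-08). TRIM14, an adaptor in RNA sensing, fell by 2.37 and PARP12 by 1.44. Among the receptor chains and kinases 5 rose and 1 fell, with IFNGR1 up by 1.31, IL10RB up by 1.03, JAK1 up by 0.31, while IFNGR2 fell by 0.80. JAK1 probe set 201648_at read 96.5 and 80.2 in DMSO and 258 and 265 in TSA and rose by 1.42 (adjusted p = 0.000404 in the fit over all probe sets), and with the JAK1 probe sets averaged the gene did not pass (adjusted p = 0.0752).

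Among the 12 adaptors and kinases 1 rose and 3 fell with TSA, where 20.6% of all genes rose and 21.4% fell. TRAF3 fell by 1.37 ± 0.08 (adjusted p = 8.16e-07) and MYD88, the adaptor of most Toll-like receptors, fell by 0.98 ± 0.09 (adjusted p = 1.61e-05). IRF3, the transcription factor that RNA sensing activates, rose by 0.65, and TBK1, its kinase, fell by 0.34 without a call once either DMSO array or TSA replicate 2 was left out. Of 18 interferon genes IFNA1 rose and IFNA17 fell, 2 members of a family of near-identical genes whose probe sets are uncertain. The IFNA1 call was lost without DMSO replicate 1 or TSA replicate 2 and the IFNA17 call without DMSO replicate 2 or TSA replicate 1. PIAS1, 1 of 4 feedback inhibitors, rose by 1.18 (adjusted p = 2.18e-06).

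With Roscovitine against DMSO 1 of the 41 genes fell and 0 rose, where 2.21% of all genes fell, 0.551% rose and 2.76% passed in either direction. The gene was HERC5, which fell by 0.47 ± 0.09 (adjusted p = 0.0286). The call was lost without either DMSO array, Roscovitine replicate 2, either si-Control array or either si-EZH2 array. USP18 read 219 and 248 in Roscovitine, against 341 and 350.2 in DMSO, and its log2 difference of -0.54 did not pass (adjusted p = 0.106).

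With si-Control against DMSO 3 of the 41 genes rose and 0 fell, where 3.96% of all genes rose and 6.33% fell, 10.3% in either direction. Transfection, the longer time and the experiment cannot be told apart in this comparison. ISG20 read 241 and 259.5 in DMSO and 868 and 799 with si-Control, and rose by 1.67 ± 0.20 (adjusted p = 0.00116). IFI6 read 221 and 219 in DMSO and 674 and 457 with si-Control, and rose by 1.28 ± 0.15 (adjusted p = 0.00109). HERC5 read 216 and 213 with si-Control and rose by 0.51 ± 0.09 (adjusted p = 0.00722), a call lost without DMSO replicate 1 or either si-Control array. In a fit of the si-Control and DMSO arrays alone ISG20 passed, and IFI6 and HERC5 did not (adjusted p = 0.0558 and 0.0573). IFIT2 probe set 226757_at rose by 1.14 (adjusted p = 0.0182 over all probe sets, where 2.26% rose), from 58.4 and 65.8 to 172 and 141. The probe set that stood for IFIT2, 217502_at, had a difference of 0.02. IFIH1 and GBP1 did not pass, with log2 differences of -0.11 and -0.24. Leaving out any 1 of the 4 add-back arrays does not change the log2 differences of this comparison, only the estimate of spread. Outside the 41 genes, JAK2 rose by 0.74 and LGALS3BP by 0.54, and TRIM14, PIAS1 and MYD88 fell by 0.60, 0.36 and 0.36. SP100 also rose, from 280 and 286 in DMSO to 400 and 403 with si-Control. JAK2 lost its call without DMSO replicate 1 or si-Control replicate 1. The others lost theirs without any 1 of the 4 DMSO and si-Control arrays, and SP100 and MYD88 also without a si-EZH2 array. With probe sets averaged JAK2, TRIM14, SP100 and PIAS1 did not pass.

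Over the 7 comparisons 25 of the 41 genes passed in at least 1 and 16 in none. The 16 were DHX58, HERC6, IFI16, IFI44L, IFIT2, IRF9, ISG15, MX1, MX2, OAS1, OAS2, OASL, PARP14, RSAD2, TRIM22 and XAF1. On a probe set other than the one that stood for the gene, in the fit over all probe sets, 3 of the 16 passed. OASL probe set 205660_at read 279 and 252 in DMSO and 569 and 596 in TSA, and rose by 1.09 (adjusted p = 1.86e-05). IFIT2 probe set 226757_at fell by 0.95 with TSA (adjusted p = 0.00833), beside its rise with si-Control. OAS1 probe set 205552_s_at rose with the wild-type add-back and, by 0.63, with si-Control (adjusted p = 0.0439).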

How the data were processed

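Linear intensity values of 54613 probe sets in 14 arrays were used as the authors deposited them. Per the labels, RNA came from a Qiagen kit and was biotin-labelled. The summarization and scaling method is not given in the sources available. By the platform annotation, 41091 probe sets had 1 symbol, 1801 several and 11721 none. The probe set with the highest mean of log2(value + 16) stood for each of 19775 genes.

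All arrays entered 1 limma 3.58.1 model of group means (R 4.3.3; residual degrees of freedom 7, prior 2.11), which assumes 1 spread for all groups. P-values were Benjamini-Hochberg adjusted over all genes and called under 0.05. The steps were tested on simulated data. Genes and lists were chosen with earlier results of these data known. Named were all members, with per-array signals for the 8 smallest p per comparison, the sensors and the 3 brightest, and outside them EZH2, JAK1, IFNB1 and up to 4 called genes per list. Lists of fibroblast and endothelial and of androgen-independent line markers were also run. Alternatives were a signal filter, other scalings, pseudocounts of 1 and 64, averaged probe sets, a replicate block and a trended prior. Others were separate experiments (for si-Control against DMSO those 2 groups alone) and leaving out arrays.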

Additional observations from a re-analysis of the deposited data

Results flagged for a closer look

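Probe set 220788_s_at is annotated to both RNF31 and IRF9 and so stood outside the comparisons of single genes. It read 367 and 320 in DMSO and 623 and 647 in TSA, a log2 difference of 0.86 that passed in the limma fit over all probe sets. It drew attention because the IRF9 probe set with 1 symbol did not pass with TSA, and the part of either gene in the signal was not tested.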

How the results depend on the processing

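Of 2086 recomputed values of 84 named results 1873 kept their direction and side of the threshold, 212 kept the direction without the call and 1 turned, RIGI with TSA, at -0.042 on the mean of all probe sets. Many of these fits cannot change a log2 difference. They are the signal filter, the replicate block, the trended prior, the separate experiments and leaving out an array outside the comparison. Direction was fixed in advance in them, and only the call could change. Leaving out single arrays gave member counts of 17 to 24 for TSA, 0 to 3 for Roscovitine, 5 to 16 for the wild-type add-back, 1 to 5 for the T350A add-back, 0 to 8 for T350A against the wild-type and 2 to 5 for si-Control against DMSO. The highest count for T350A against the wild-type came without wild-type replicate 2, where more of all genes passed too. In the fits without 1 array the share of all genes that passed also moved. For si-EZH2 the count was 0 throughout. In fits of the untransfected or the transfected arrays alone the counts were 0 for Roscovitine, 1 for the wild-type add-back and 0 for T350A. Of all genes 0.0303%, 1.23% and 0.0202% passed there. In a fit of the si-Control and DMSO arrays alone, which spans both experiments, the count was 5, where 10.7% of all genes passed. Of the 5 genes 4 rose, 1 fell and only ISG20 was among the 3 reported. The brighter genes numbered 9887, of which 21 were members. Of them all 11.8% passed for Roscovitine, 4.52% for T350A, 1.79% for T350A against the wild-type and 28.3% for si-Control. In the same order the member counts were 2, 5, 1 and 6. Without both arrays known to deviate (Roscovitine replicate 2 and T350A replicate 2) they were 0 for Roscovitine, 1 for T350A against the wild-type and 6 for si-Control. For si-Control quantile normalization gave 7 and a common median, a pseudocount of 64 or a trended prior gave 5 each. In these 4 settings 11.1% to 13.3% of all genes passed. Some of these fits hold fewer arrays or genes, and the causes of the changed counts were not tested. The choice of probe set by linear mean, added after the data were seen, kept all counts within 1 of the reported ones.

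With the replicate block the counts were 22 for TSA, 1 for Roscovitine, 0 for si-EZH2, 15 for the wild-type, 3 for T350A, 0 for T350A against the wild-type and 4 for si-Control. The labels do not say that arrays of the same number belong together. The differences of replicate 2 from replicate 1 correlated between -0.33 and 0.77 over 21 pairs of groups. The highest value, 0.77, was for Roscovitine with the T350A add-back, so these arrays shared a deviation. DMSO correlated at 0.40 with Roscovitine and at 0.33 with T350A. The number of arrays, 2 per group, limits the precision.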

Other observations

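CGAS, the cytosolic DNA sensor, read 1339 in Roscovitine replicate 2 and at most 26.1 in the other 13 arrays, and it did not pass in any comparison. This single value was noticed after the data were seen.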
